A study of Mus musculus with 4 samples.

Results

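Toll-like receptors (TLRs) are a family of receptors that bind molecules of microbes and of damaged cells. The report follows 10 mouse TLR genes, Tlr1, Tlr2, Tlr3, Tlr4, Tlr6, Tlr7, Tlr8, Tlr9, Tlr11 and Tlr13, through the immune cells of a melanoma. They were chosen by symbol, as the listed genes with a row in both deposited count matrices, and are 10 of the 32285 genes of the CD45 sort and of the 31053 genes of the T cell sort. The rule itself used no measured value. Tlr5 and Tlr12 also had a row in both matrices but were not on the list, and their levels are given near the end.

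The study asked which tumor-infiltrating leukocytes (TILs) take up cytoplasm of tumor cells. Wild-type C57BL/6 mice carried subcutaneous tumors of B16-F10, a mouse melanoma line, as a single clone with a lentiviral, doxycycline-inducible gene for the green fluorescent protein ZsGreen (ZsG). All 4 libraries came from tumors taken at day 8, after doxycycline in the drinking water, so every group shared the clone, the inducer and the tumor model. One pair was sorted for CD45, the common leukocyte antigen, and one pair for CD45 and a T cell marker. That marker is the T cell receptor beta chain (TCRb) in the names of the deposited data and CD3 in the methods of the study. Each pair was split into ZsG-negative and ZsG-positive cells. Each condition was 1 library of single-cell RNA sequencing, and the sources used here do not give the number of mice behind a library. No difference between libraries therefore had a replicate check, and no test of conditions was run.

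TLRs of the cell surface and TLRs of endosomes read different ligands. Tlr2 pairs with Tlr1 or Tlr6 to bind bacterial lipopeptides, and Tlr4 binds lipopolysaccharide with the help of Ly96 (MD-2) and Cd14. In endosomes Tlr3 binds long RNA duplexes, Tlr7 and Tlr8 bind RNA and its breakdown products, Tlr9 binds unmethylated DNA, Tlr13 binds bacterial ribosomal RNA, and Tlr11 binds the profilin of parasites such as Toxoplasma. The endosomal receptors are brought there by the chaperone Unc93b1. Most members signal through the adaptor Myd88, Tlr3 signals through Ticam1 (TRIF), and Tlr4 uses both. In myeloid cells and dendritic cells (DCs) these paths lead to cytokines, interferons and costimulation.

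The 10 genes were placed in the GRCm38 build (GENCODE vM21), where all 10 identifiers matched those of the matrices. Tlr1 (chr5:64924679-64933563) and Tlr6 (chr5:64952031-64960097) were neighbours on the minus strand, 18467 bases apart. Tlr8 (chrX:167242696-167264329) and Tlr7 (chrX:167304929-167330558) were likewise on the minus strand, 40599 bases apart. Tlr13 (chrX:106143204-106160493) lay on the plus strand of X. The others were Tlr2 (chr3:83836272-83841767, minus), Tlr3 (chr8:45395665-45411080, minus), Tlr4 (chr4:66827584-66930284, plus), Tlr9 (chr9:106222598-106226883, plus) and Tlr11 (chr14:50357914-50363663, plus). The antisense gene Gm45542 overlapped Tlr3 and had its own row in the matrices.

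The CD45 libraries held 5437 ZsG-negative barcodes with 47537541 UMIs and 5168 ZsG-positive barcodes with 56510578 UMIs, and the T cell sort held 1136 barcodes with 10030971 UMIs and 2396 barcodes with 22100220 UMIs. A UMI (unique molecular identifier) marks 1 captured RNA molecule. After filtering, 4699, 4123, 948 and 1879 cells remained, with median depths of 5769, 9928, 6634 and 8180 UMIs, so the ZsG-positive CD45 cells were the deepest. Cells were placed in classes by marker genes and are called T-like, NK-like and so on, here shortened to T cells, NK cells and so on. All 67 class markers tested in the CD45 sort and all 55 in the T cell sort were higher in their own class than in the other cells, as the gate required. The classes were unequal between the gates: the ZsG-positive CD45 library held 1452 macrophages against 1 in the ZsG-negative one, and 198 against 1464 T cells. The gate for classical monocytes did not hold like cells in both: most of its ZsG-negative cells lay in a cluster with markers of non-classical monocytes, so for that library the text speaks of the gate. The T cell sort also held cells that carried markers of other classes, among them 570 ZsG-positive and 111 ZsG-negative plasmacytoid DCs (pDCs). A total of 6 barcodes was shared by the CD45 libraries and 1 by those of the T cell sort. File and library names disagreed on which library of the T cell sort was ZsG-positive. Here the library with 2396 barcodes was taken as ZsG-positive, and the other reading would reverse the sign of every difference within that sort.

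Levels are given as UMIs per 1000000 UMIs of the same cells (CPM), with the exact Poisson 95% interval in brackets. Shares of cells carry exact Clopper-Pearson 95% intervals and were taken after thinning each cell to 3000 UMIs, which left out shallower cells (38 of 1464 T cells and 203 of 1893 NK cells of the ZsG-negative, and 14 of 198 T cells and 16 of 69 NK cells of the ZsG-positive CD45 library, and at most 13 cells of any other class named below in that sort). All intervals cover counting error only. A ratio between groups is a log2 ratio of CPM with 0.5 UMI added to each sum and an exact conditional 95% interval. A gene is called higher or lower past 2-fold where both groups together held at least 20 UMIs, and the same count over all genes is the background of each comparison. TLR transcripts were sparse. A count of 0 was read as allowing up to 3, for UMIs and for cells alike, in place of an interval: 0.151 CPM in T cells, 0.266 CPM in NK cells and 1.46 CPM in pDCs of the ZsG-negative CD45 library, and 1.17 CPM in T cells of the ZsG-positive one.

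Each member had its highest levels in a few cell classes. Among classes of at least 50 cells of the ZsG-positive CD45 library, Tlr1, Tlr2, Tlr4, Tlr6, Tlr8 and Tlr13 had their highest CPM in monocytes and macrophages. In the ZsG-negative CD45 library the monocyte gates had the highest CPM of these genes except Tlr1, which was 8.75 CPM in DC2 and 8.21 CPM in the classical monocyte gate. NK cells held 46.6% of all Tlr4 UMIs there and 27.1% of all UMIs. T cells held 41.8% of all Tlr1 UMIs and 47.8% of all UMIs. Tlr7 was highest in pDCs and was also found in monocytes, and Tlr3 and Tlr11 were highest in DC1 (the conventional DCs that carry Xcr1 and Clec9a). T cells held little of any member. In cells thinned to 3000 UMIs at least 1 member was found in 70.1% [62.0–77.3] of ZsG-negative and 63.7% [60.4–66.9] of ZsG-positive cells of the classical monocyte gate. The share was 58.0% [55.4–60.6] in macrophages and 46.1% [36.8–55.6] in ZsG-positive DC1. It was 36.5% [30.1–43.3] in ZsG-negative pDCs of the CD45 sort, 2.72% [2.00–3.61] in ZsG-negative NK cells and 1.54% [0.969–2.33] in ZsG-negative T cells. Monocytes and macrophages therefore held a member far more often than lymphocytes at equal depth. As many as 4 members were seen in 1 thinned cell, in monocytes and in macrophages.

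**Figure D1:**
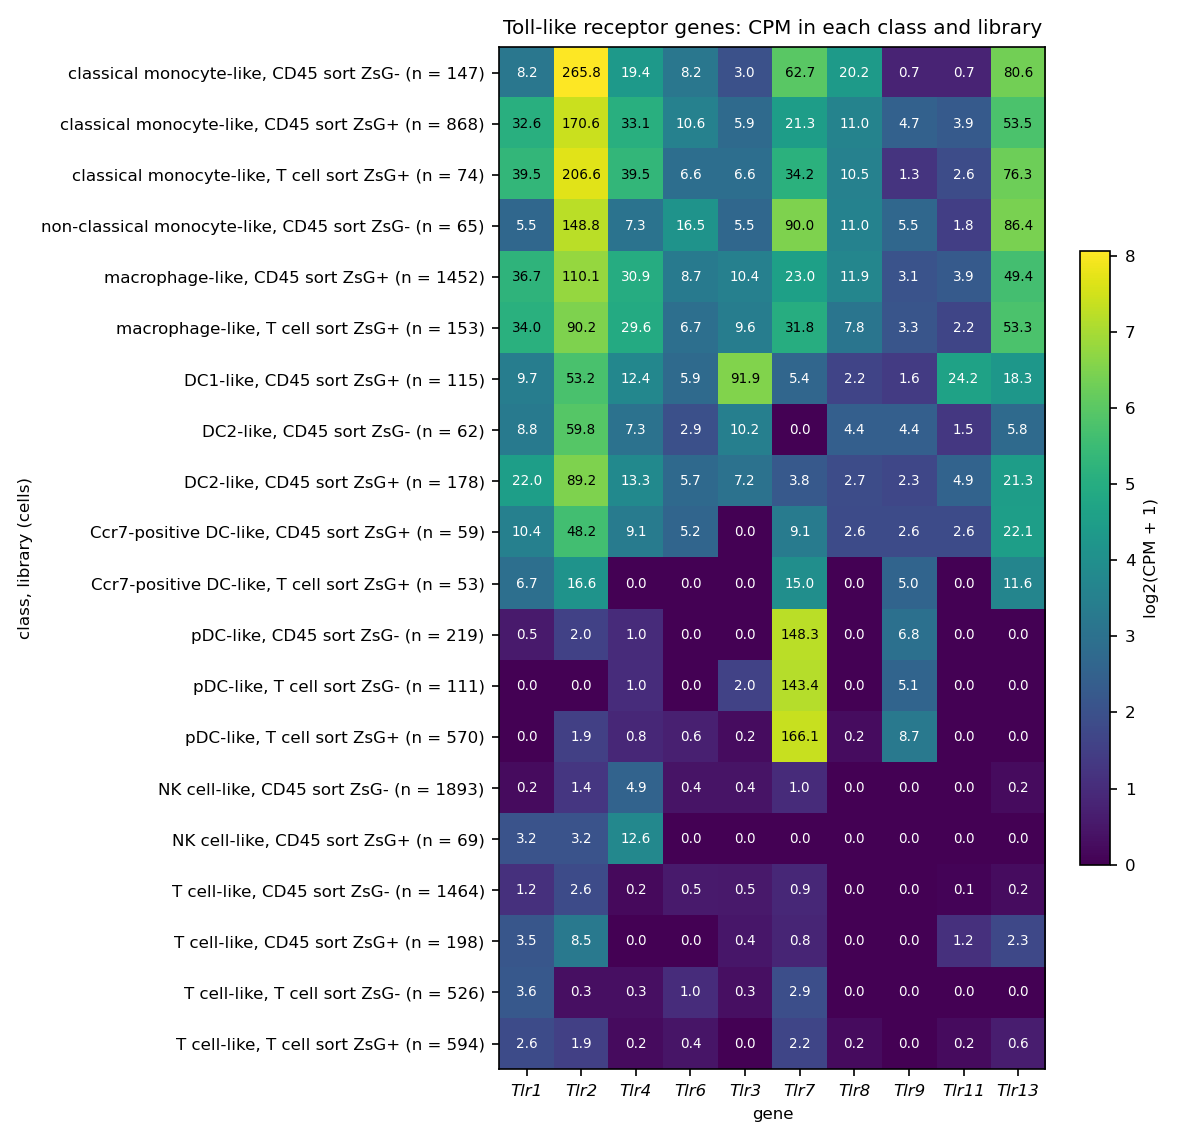
Levels of the 10 members (columns) by class and library with at least 50 cells (rows, cell numbers in brackets): cells print CPM, and the colour is log2(CPM + 1), brighter for higher. Tlr2 is bright in monocytes and macrophages, Tlr7 in the 3 pDC rows and Tlr3 in DC1, and the NK and T cell rows are dark.

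Of the receptors of the cell surface, Tlr2 was found across monocytes, macrophages and DCs. Its level in the classical monocyte gate was 266 CPM [239–295] in the ZsG-negative and 171 CPM [161–180] in the ZsG-positive CD45 library, and 203 CPM [161–254] and 207 CPM [176–242] in the few such cells of the ZsG-negative (32 cells) and ZsG-positive (74 cells) T cell sort. In macrophages it was 110 CPM [106–115] in the ZsG-positive CD45 library, 154 CPM [130–181] in the ZsG-negative and 90.2 CPM [79.3–102] in the ZsG-positive T cell sort. Macrophages were below classical monocytes in each of these 3 libraries, with overlapping intervals in the ZsG-negative T cell sort. After thinning, a Tlr2 UMI was found in 51.7% [43.3–60.0] of ZsG-negative and 36.3% [33.1–39.6] of ZsG-positive cells of the classical monocyte gate and in 0.351% [0.114–0.816] of ZsG-negative T cells. Non-classical monocytes held 149 CPM [118–185] in the ZsG-negative CD45 library. DC2 (the conventional DCs that carry Cd209a and Clec10a) held 59.8 CPM [42.9–81.1] and 89.2 CPM [78.1–101] in the ZsG-negative and ZsG-positive CD45 libraries. In classes of at least 50 cells of the ZsG-positive CD45 library, classical monocytes, macrophages, DC2 and DC1 at 53.2 CPM [43.3–64.8] followed in this order, with no overlap between neighbouring intervals. DCs that carry Ccr7 were at 48.2 CPM [33.9–66.4], which overlapped DC1. The 18 non-classical monocytes of that library were above all of these, at 285 CPM [204–388]. Macrophages supplied 44.2% of all Tlr2 UMIs of that library and 44.8% of all its UMIs, so they held about as much Tlr2 as their share of the RNA.

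Tlr1 and Tlr6, the partners of Tlr2, were lower in count but followed it into myeloid cells. Tlr1 was 32.6 CPM [28.6–36.9] in ZsG-positive classical monocytes and 36.7 CPM [34.2–39.2] in macrophages of the CD45 sort, intervals that overlapped. It was 8.21 CPM [4.10–14.7] in ZsG-negative cells of the classical monocyte gate and 22.0 CPM [16.7–28.5] in ZsG-positive DC2. Tlr6 was 10.6 CPM [8.44–13.2] in ZsG-positive classical monocytes and 8.72 CPM [7.55–10.0] in macrophages. In T cells of the CD45 libraries Tlr1 was 1.16 CPM [0.735–1.74] without and 3.50 CPM [1.60–6.64] with ZsG, and Tlr6 was at 0.504 CPM [0.242–0.927] and at 0 UMIs.

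Tlr4, the receptor for lipopolysaccharide, was 33.1 CPM [29.1–37.5] in ZsG-positive classical monocytes and 30.9 CPM [28.7–33.3] in macrophages. It was 19.4 CPM [12.7–28.4] in ZsG-negative cells of the classical monocyte gate, 7.35 CPM [2.00–18.8] in non-classical monocytes, and 12.4 CPM [7.84–18.6] and 13.3 CPM [9.25–18.5] in ZsG-positive DC1 and DC2. The DC levels were below those of the monocytes and macrophages of the same library, and DC1 and DC2 did not differ beyond their intervals. Its helpers were found in the same classes: Cd14 was 706 CPM in ZsG-positive classical monocytes and 413 CPM in macrophages, and Ly96 was 35.3 CPM and 39.8 CPM. Cd14 was 2.92 CPM and Ly96 2.57 CPM in ZsG-negative T cells.

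Among the endosomal receptors of monocytes and macrophages, Tlr13 was found in 16.4% [14–19] of thinned ZsG-positive classical monocytes and 13.7% [12–15.6] of macrophages. Its level was 80.6 CPM [66.1–97.4] in ZsG-negative and 53.5 CPM [48.4–59.0] in ZsG-positive cells of the classical monocyte gate, 86.4 CPM [63.5–115] in ZsG-negative non-classical monocytes and 49.4 CPM [46.5–52.4] in macrophages. Tlr13 was at 0 UMIs in the pDCs of all 4 libraries, which allows up to 0.633 CPM in the 570 pDCs of the ZsG-positive T cell sort. Tlr8, a neighbour of Tlr7 on X, was 20.2 CPM [13.3–29.3] and 11 CPM [8.80–13.7] in the same monocyte gates and 11.9 CPM [10.5–13.4] in macrophages. It was at 0 UMIs in the T cells and NK cells of both CD45 libraries. Tlr9, the receptor for unmethylated DNA, was at most 5.51 CPM when summed over each monocyte or macrophage gate of the CD45 sort.

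Tlr7, which senses RNA, was the main member of pDCs, the cells known for type I interferon. Its level in pDCs was 148 CPM [132–166] in the ZsG-negative and 132 CPM [72.1–221] in the 17 cells of the ZsG-positive CD45 library. In the T cell sort it was 143 CPM [121–169] without and 166 CPM [155–178] with ZsG. The 4 libraries thus held overlapping levels. A Tlr7 UMI was found in 34.2% [28.0–40.9] of thinned ZsG-negative pDCs of the CD45 sort (65.3% before thinning), and in 0.281% [0.0765–0.717] of T cells of the same library. The next levels were 90.0 CPM [66.6–119] in ZsG-negative non-classical monocytes and 62.7 CPM [50–77.6] in ZsG-negative cells of the classical monocyte gate, whose intervals overlapped. ZsG-positive classical monocytes and macrophages followed at 21.3 CPM [18.1–24.9] and 23.0 CPM [21.1–25.1]. Tlr9 in pDCs was 6.83 CPM [3.73–11.5], 5.08 CPM [1.65–11.9] and 8.65 CPM [6.21–11.7] in the ZsG-negative CD45, ZsG-negative T sort and ZsG-positive T sort libraries, with overlapping intervals. In ZsG-negative pDCs of the CD45 sort the other 8 members came to at most 1.95 CPM each. Tlr12, which is not a member, held 108 UMIs in these cells, against 14 for Tlr9. Unc93b1, which carries the endosomal receptors to their place, was 485 CPM, 533 CPM and 577 CPM in these 3 pDC groups, above the 329 CPM of ZsG-positive macrophages and the 8.97 CPM of ZsG-negative T cells of the CD45 sort.

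**Figure D2:**
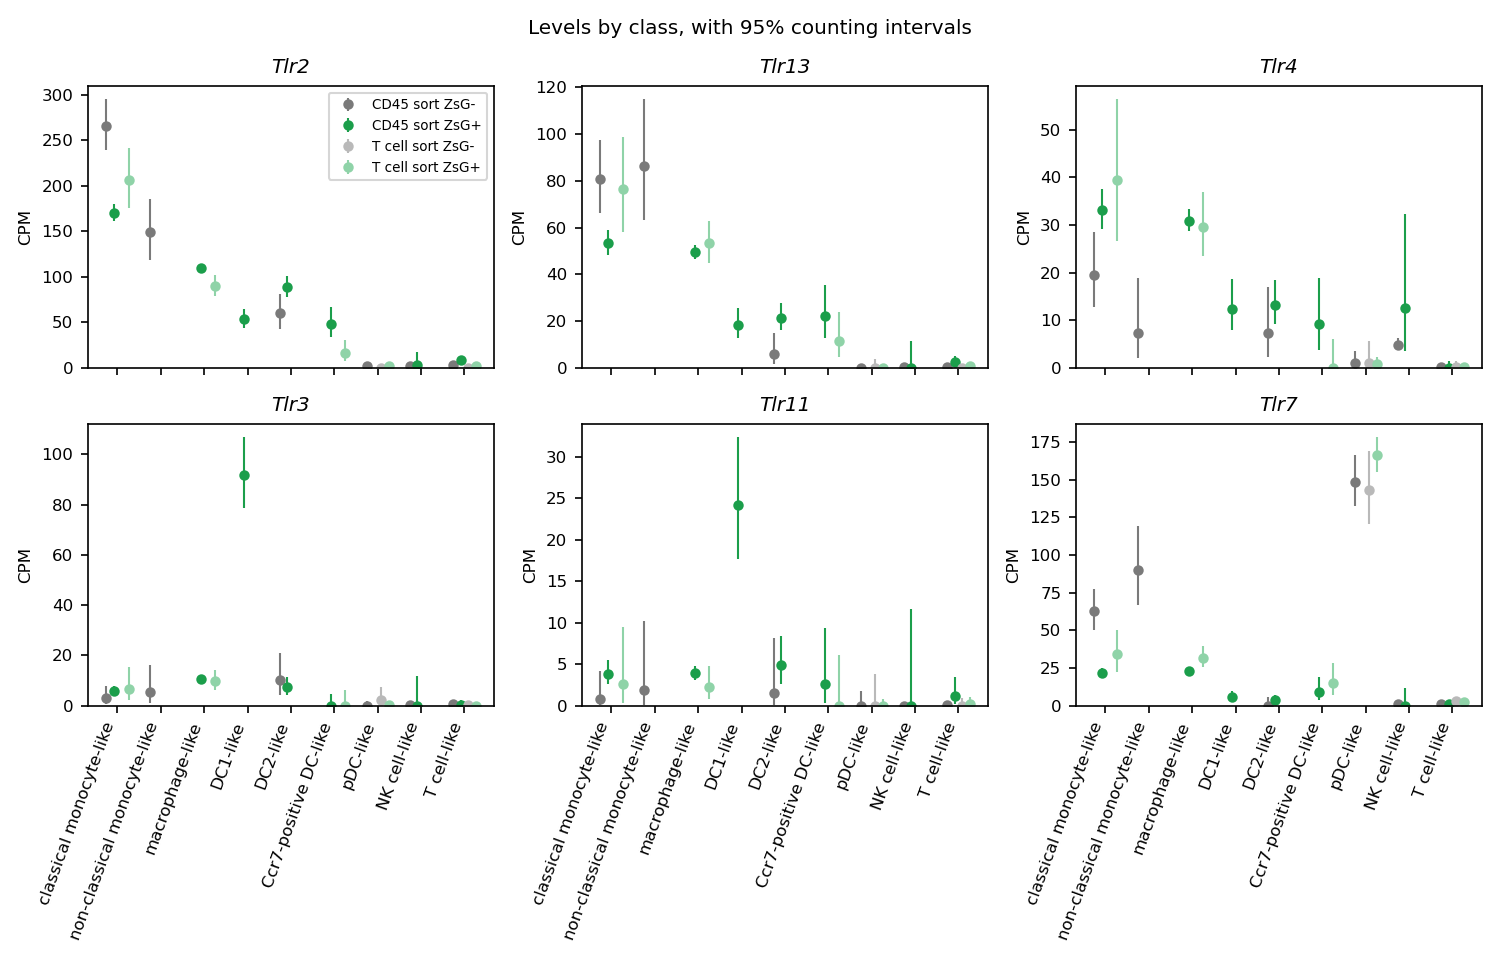
CPM (linear axes from 0, a scale for each gene) of 6 members by class, in classes of at least 50 cells, with colours for the 4 libraries and bars for the exact Poisson 95% interval. Tlr7 stands at 148 CPM in ZsG-negative pDCs and Tlr3 at 91.9 CPM in ZsG-positive DC1, each above the other classes of the same library.

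Tlr3 and Tlr11 shared DC1 as the class of their highest level in the CD45 libraries. The 250 bases before their RefSeq start sites (GRCm38.p6) are shown because the 2 genes had this class in common. Capitals mark the matches of the motifs searched. The Tlr3 window is chr8:45410381-45410630 (minus strand, inside the longer GENCODE gene), and its capitals are a match of GGANTTTCC, the core of an NF-kB motif, from base -210 to -202. The Tlr11 window is chr14:50357664-50357913 (plus strand), and its capitals are GAGGAAGT, a motif of PU.1, from -133 to -126, and GAAANNGAA, the core of an interferon response element, from -122 to -114.
Tlr3: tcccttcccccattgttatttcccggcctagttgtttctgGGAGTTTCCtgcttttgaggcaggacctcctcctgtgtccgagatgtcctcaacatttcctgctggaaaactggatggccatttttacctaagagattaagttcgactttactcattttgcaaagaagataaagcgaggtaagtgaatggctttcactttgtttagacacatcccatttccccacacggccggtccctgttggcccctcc
Tlr11: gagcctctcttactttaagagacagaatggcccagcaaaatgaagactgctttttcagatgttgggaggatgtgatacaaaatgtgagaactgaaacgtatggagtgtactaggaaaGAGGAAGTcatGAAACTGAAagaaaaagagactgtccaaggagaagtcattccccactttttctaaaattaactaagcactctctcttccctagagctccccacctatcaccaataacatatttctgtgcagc

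The letters matched in these windows differed between the 2 genes. Both strands were searched for GAAANNGAA, GGAANNGAA (the core of an element bound by PU.1 with an IRF), GAGGAAGT, GGANTTTCC and the E-box CAGCTG. Of 32544 RefSeq promoters of the same length, 7.15%, 6.95%, 2.46%, 1.07% and 13.05% held each of these, in that order. Promoters were at hand for 8 of the 10 members. Of the others, Tlr1 held GAGGAAGT from -23 to -16, Tlr6 held 2 overlapping matches of GAAANNGAA on the other strand, from -115 to -101, and Tlr8 held 1 on the other strand, from -67 to -59. Tlr1 and Tlr6 had 2 promoters each, and these matches lay in 1 of them, with none in the other. A match is a run of letters and not a measured binding site.

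Tlr3, the receptor for RNA duplexes, was 91.9 CPM [78.7–107] in the 115 ZsG-positive DC1 (171 UMIs) and 46.5 CPM [26.6–75.5] in the 24 ZsG-negative DC1 (16 UMIs) of the CD45 sort. It was 64.7 CPM [47.4–86.3] in the 42 DC1 of the ZsG-positive T cell sort. DC1 held 3.69% of all UMIs of the ZsG-positive CD45 library and 30.5% of its Tlr3 UMIs. A Tlr3 UMI was found in 28.7% [20.6–37.9] of these DC1 after thinning (61.7% before), in 3.61% [2.71–4.71] of macrophages and in 0 of 184 T cells, which allows a share of up to 1.63%. Macrophages were at 10.4 CPM [9.12–11.8], DC2 at 7.21 CPM [4.34–11.3] and classical monocytes at 5.85 CPM [4.25–7.86] in the same library. DC1 stood apart, while DC2 overlapped both of the other classes. DCs that carry Ccr7, a mark of migration to lymph nodes, held 0 Tlr3 UMIs in 59 cells of the ZsG-positive CD45 library and in 53 cells of the ZsG-positive T cell sort, which allows up to 3.91 and 4.99 CPM.

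Tlr11, which reads parasite profilin, was rarer and had the same leading class. It was 24.2 CPM [17.6–32.4] in ZsG-positive DC1 (45 UMIs), 23.3 CPM [10.0–45.8] in ZsG-negative DC1 (8 UMIs) and 19.7 CPM [10.8–33.0] in DC1 of the ZsG-positive T cell sort (14 UMIs). The 3 libraries overlapped. In the ZsG-positive CD45 library DC2 held 4.93 CPM [2.63–8.44], macrophages 3.90 CPM [3.13–4.80] and classical monocytes 3.86 CPM [2.58–5.54], and these 3 did not differ beyond their intervals. It was at 0 UMIs in ZsG-negative pDCs and NK cells of the CD45 sort.

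Set against DC2 of the same ZsG-positive CD45 library, DC1 held more Tlr3 and Tlr11 and less Tlr1. The log2 ratio was 3.64 [2.99 to 4.44] for Tlr3, 2.26 [1.38 to 3.31] for Tlr11 and -1.16 [-2.04 to -0.40] for Tlr1. These were 3 of the 8 members with enough UMIs, where 9.03% of all genes were called. Tlr2 was at -0.74 [-1.10 to -0.40], Tlr13 at -0.21, Tlr4 at -0.09, Tlr6 at 0.07 and Tlr7 at 0.50, all short of 2-fold. Of the DC1, 35 of 115 lay in clusters led by another class, and 18 were within 1 marker of the next class. The DC1 also held 2158 CPM of the myeloid gene Lyz2 and 254 CPM of the macrophage gene C1qa. Without the cells of those clusters Tlr3 was 92.7 CPM and 3.62 above DC2 (log2), Tlr11 was 29.8 CPM and 2.53 above DC2, Tlr1 was at -2.65, and Tlr2 was past 2-fold at -1.41. Irf8, a transcription factor on which DC1 depend, was 1713 CPM in DC1 and 340 CPM in DC2. A direct comparison of pDCs with DC1 was not made, because no library held 50 cells of both.

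Macrophages and classical monocytes of the ZsG-positive CD45 library differed by less than 2-fold for all 10 members. None of the 10 was called, where 14.3% of all 11379 genes tested were. Tlr2 was lower in macrophages by a log2 ratio of -0.63 [-0.73 to -0.53] and Tlr3 was higher by 0.82 [0.36 to 1.33], intervals that left out 0. Tlr9 was at -0.58 [-1.17 to 0.06], and the other 7 lay between -0.29 and 0.17. Of the macrophages 231 of 1452, and of the classical monocytes 61 of 868, lay in clusters led by another class. Tlr3 also differed between clusters of macrophages, as given below. Of the downstream genes called lower in macrophages, Il6 was 9.65 against 62.5 CPM, Il1b 1830 against 5381 CPM and Ifnb1 at a log2 ratio of -2.32. No adaptor, kinase, transcription factor or inhibitor of the pathway list was called, of 5, 16, 9 and 9 tested. The endosomal protease genes Lgmn, Ctsb and Ctsl were higher, with log2 ratios of 1.51, 1.09 and 1.07.

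Levels also varied between the 10 clusters of that library in which most gated cells were monocytes or macrophages. Clusters were named by their leading genes. They were made from variable genes of these same cells, with the members left out, and their levels are a description. Tlr2 ranged from 97.1 CPM in a cluster led by the interferon-induced genes Ifit3b, Ifit3 and Oasl1 to 191 CPM in one led by Vcan and Hsd17b7. Tlr3 was 22.1 CPM [15.4–30.8] and 14.7 CPM [10.4–20.3] in the 2 clusters led by interferon-induced genes (183 and 204 cells), against 4.01 CPM [2.14–6.86] in the Vcan cluster and 4.26 CPM [2.53–6.74] in the cluster led by Rhov and Mmp12. The second of them overlapped the clusters led by Ms4a7 (9.87 CPM [7.79–12.3]), Clic5 (9.14 CPM [5.97–13.4]) and Igf1 (7.98 CPM [5.84–10.6]), and the first did not. A cycling cluster led by Depdc1a (20.8 CPM) and one led by Ccl17 and Cd209a (23.5 CPM) were as high as the first. Cd209a and Kmo, leading genes of the latter, are DC2 markers, so it cannot be called a macrophage cluster by its genes. Tlr9 was highest in the first interferon cluster at 10.8 CPM [6.27–17.2], and 7.16 CPM [4.24–11.3] in the second, against 1.04 to 4.49 CPM in the other 8, and the interval of the second overlapped that of the highest of these. Tlr13 ranged from 26.3 CPM in the cycling cluster to 63.6 CPM in the cluster led by Ms4a7 and Ccl8. Tlr11 was 9.85 CPM [6.54–14.2] in the cluster led by Clic5 and Ly6i and 0.694 CPM [0.189–1.78] in the one led by Igf1 and Pdpn.

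**Figure D3:**
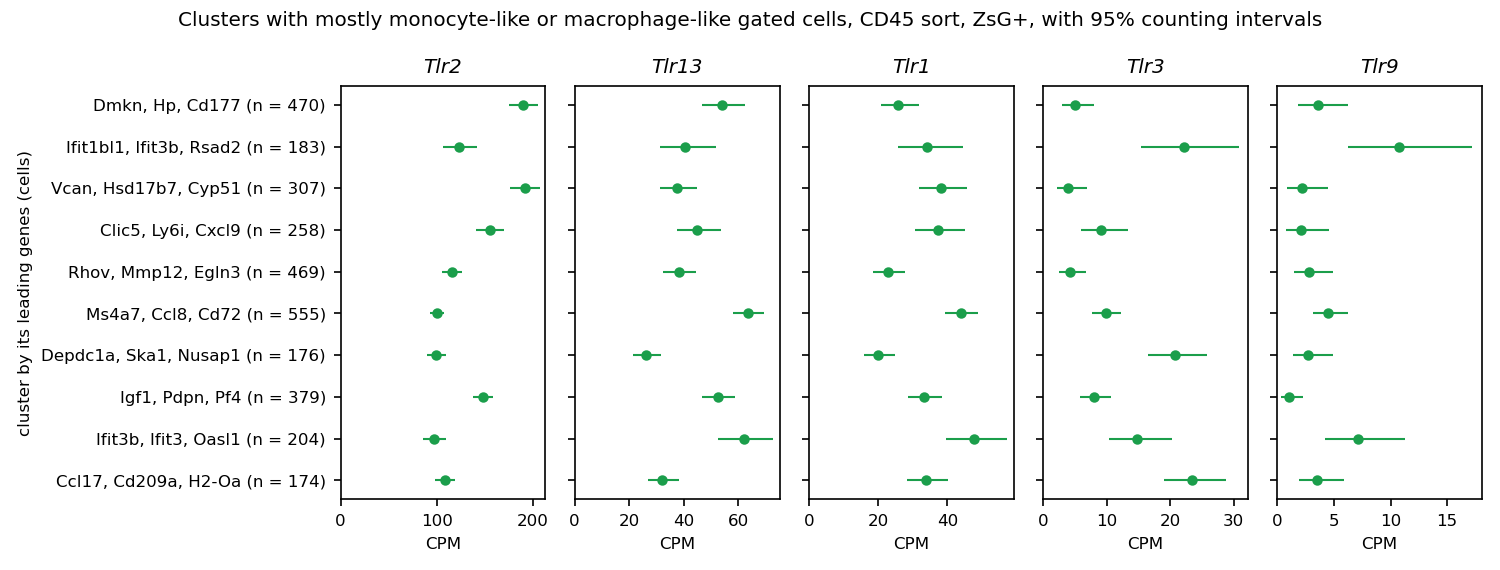
CPM (linear axes from 0) of 5 members in the 10 clusters of the ZsG-positive CD45 library in which most gated cells were monocytes or macrophages, each named by its leading genes, with bars for the exact Poisson 95% interval. Tlr9 is highest in a cluster led by interferon-induced genes, at 10.8 CPM, and Tlr2 spans 97.1 to 191 CPM.

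The next comparison was between ZsG-negative and ZsG-positive monocytes. The classical monocyte gate did not hold the same cells in both libraries: 106 of its 147 ZsG-negative cells (72.1%) lay in a cluster led by Hpgd, Adgre4 and Treml4, with 4 non-classical and 0 classical markers among its top 10 genes, while 385 of 868 ZsG-positive cells (44.4%) lay in a cluster led by Dmkn and Cd177, with 3 classical markers. The Dmkn cluster was therefore compared across the gate, and the Hpgd cluster, with under 50 ZsG-positive cells, was not. In the Dmkn cluster (470 ZsG-positive and 54 ZsG-negative cells) Tlr7 was lower in ZsG-positive cells, 20.8 CPM [16.2–26.3] against 43.6 CPM [27.3–66.1], a log2 ratio of -1.09 [-1.78 to -0.31]. The 2 sides of this cluster also differed in markers: Hpgd was 12.5 CPM in ZsG-positive and 63.5 CPM in ZsG-negative cells, with intervals that did not overlap, and C1qa was 157 and 15.9 CPM. The part of these cells' makeup in the Tlr7 difference was not tested. Tlr3 was called lower as well, at -1.52 [-2.80 to 0.05] from 17 and 7 UMIs, an interval that includes 0. These were 2 of 8 members tested, where 12% of all genes were called. Tlr2 was 189 CPM [175–205] with and 169 CPM [135–208] without ZsG, a log2 ratio of 0.16 [-0.16 to 0.51]. Tlr1 (0.32 [-0.56 to 1.49]), Tlr4 (-0.01 [-0.76 to 0.92]), Tlr13 (-0.11 [-0.66 to 0.53]), Tlr6 (-0.27) and Tlr8 (-0.85 [-1.94 to 0.55]) all had intervals or values short of a call.

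The gate as a whole gave other values, which mix cells of these and other clusters. In the ZsG-negative library the Hpgd cluster also held the classical marker Ly6c2, at 990 CPM against 1273 CPM in the Dmkn cluster. The non-classical marker Hpgd was 228 against 63.5 CPM. Called were 4 of 10 members: Tlr1 (1.93 [1.12 to 3.01]), Tlr9 (2.08 [0.07 to 7.98]) and Tlr11 (1.81 [-0.22 to 7.72]) higher and Tlr7 (-1.56 [-1.95 to -1.16]) lower in ZsG-positive cells, against 19.4% of all genes. Tlr9 and Tlr11 rested on 1 ZsG-negative UMI each. Between the 2 clusters inside the ZsG-negative library, the Hpgd cluster (197 cells) held less Tlr4 than the Dmkn cluster (54 cells), 9.89 CPM [5.76–15.8] against 29.8 CPM [16.7–49.1]. That was the 1 call of 6 members tested, with 17.3% of all genes called. Tlr7 (80.3 against 43.6 CPM, log2 0.85 [0.22 to 1.60]) and Tlr2 (241 against 169 CPM, log2 0.51 [0.17 to 0.87]) leaned the other way, short of 2-fold. The gate for non-classical monocytes set against that for classical ones in the same library called Tlr6 higher (1.02 [-0.44 to 2.42]) and Tlr4 lower (-1.26 [-3.38 to 0.13]), 2 of 6 members against 10.9% of all genes, and both intervals included 0.

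ZsG-positive DC2 held more Tlr13 and Tlr1 than ZsG-negative DC2. Tlr13 was 21.3 CPM [16.1–27.6] against 5.83 CPM [1.59–14.9], a log2 ratio of 1.71 [0.43 to 3.79], and Tlr1 was 22.0 CPM against 8.75 CPM [3.21–19.0], a log2 ratio of 1.23 [0.12 to 2.83]. They were 2 of the 5 members tested, beside 15.3% of all genes. Tlr2 (0.56 [0.09 to 1.09]) was higher short of 2-fold, and the intervals of Tlr4 (0.75 [-0.49 to 2.57]) and Tlr3 (-0.56 [-1.81 to 0.99]) included 0. The ZsG-negative side had only 4 Tlr13 UMIs and 6 Tlr1 UMIs, and with cells thinned to 3000 UMIs, or a minimum of 100 UMIs, neither gene had enough UMIs to be tested and 0 members were called. C1qa was 268 CPM in the ZsG-positive and at 0 UMIs in the ZsG-negative DC2, and 36 of the 178 ZsG-positive DC2 were within 1 marker of the next class. The DC2 also lay partly in different clusters: of the ZsG-negative ones 16.1% were in a cluster led by Apod, and of the ZsG-positive ones 18.0% were in a cluster led by Sept3 and Mgl2 and 12.9% in a cycling cluster. Cd209a was 349 CPM in ZsG-positive and 979 CPM in ZsG-negative DC2, and Hpgd was 1.52 and 42.3 CPM. The part of macrophage RNA and of these clusters in the differences was not tested.

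**Figure D4:**
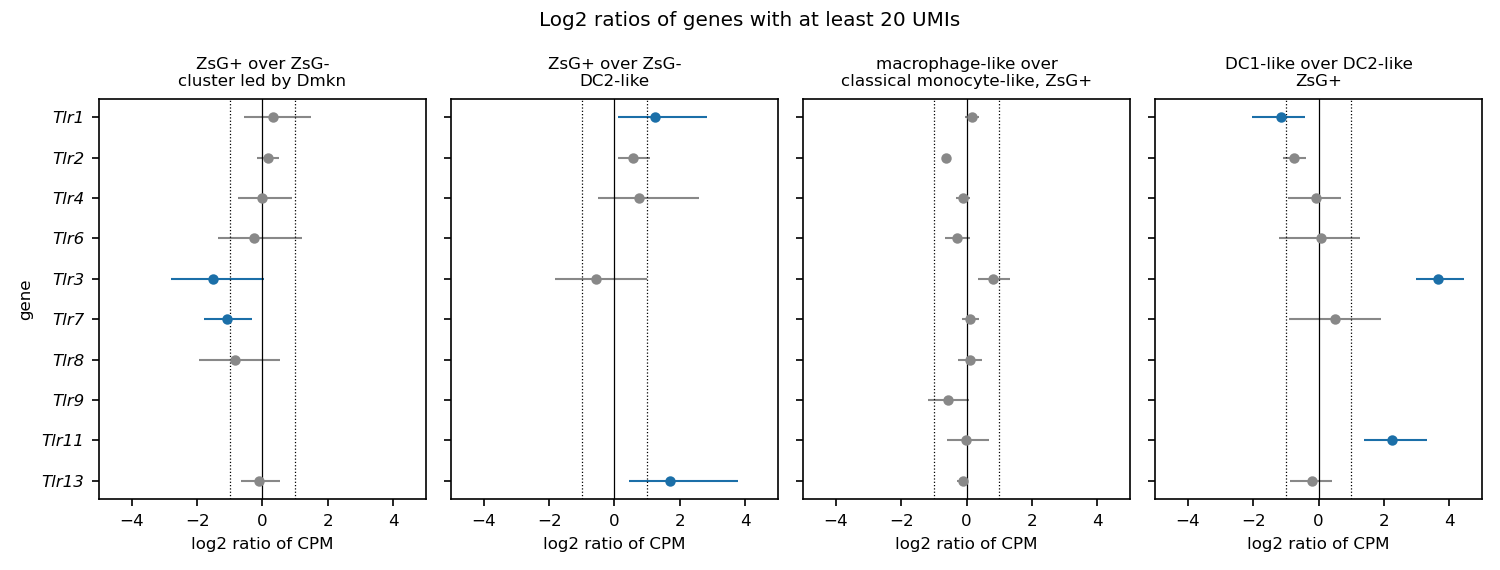
Log2 ratios of CPM for the members with at least 20 UMIs in 4 comparisons, with bars for the exact conditional 95% interval, dotted lines at 2-fold and called members in blue. Tlr3 (3.64) and Tlr11 (2.26) lie farthest to the right in DC1 over DC2, and no member is called in macrophages over classical monocytes.

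T cells and NK cells held few TLR transcripts, with Tlr4 in NK cells as the clearest value. In ZsG-negative cells of the CD45 sort, Tlr4 was 4.89 CPM [3.68–6.36] in 1893 NK cells (55 UMIs) and 0.151 CPM [0.0312–0.442] in 1464 T cells (3 UMIs), a log2 ratio of 4.80 [3.39 to 7.34]. After thinning, 1.72% [1.15–2.46] of NK cells and 0.140% [0.0170–0.506] of T cells held a Tlr4 UMI. NK cells held 176 Tlr4 UMIs per 1000 UMIs of Lyz2, against 3.98 in ZsG-positive macrophages. Lyz2 itself was 27.8 CPM in NK cells and 28.8 CPM in T cells. Cells of these classes with Lyz2 above the mean had been set apart, so the class rule itself kept their Lyz2 low. The rule did not do so for macrophages. Tlr1 was lower in NK than in T cells, with 2 against 23 UMIs and a log2 ratio of -2.41 [-5.84 to -0.69]. The 2 calls were among 4 members tested, where 21.9% of all genes were called, and Tlr2 (-0.85 [-1.79 to -0.05]) and Tlr7 (0.21) were short of 2-fold. In the 69 ZsG-positive NK cells Tlr4 was 12.6 CPM [3.44–32.3] from 4 UMIs. That 1 member tested was called higher than in ZsG-negative NK cells, at 1.53 [-0.56 to 2.81], with 16.9% of all genes called. The interval included 0. Myeloid genes moved with it, Lyz2 at 309 against 27.8 CPM and C1qa at 101 against 1.51 CPM, and a cluster led by Klra4 held 53.6% of the ZsG-positive and 19.1% of the ZsG-negative NK cells. Their part in the Tlr4 value was not tested.

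In the CD45 sort both members that could be tested in T cells were higher in the ZsG-positive library, with 7.74% of all genes called. Tlr2 was 8.55 CPM [5.36–12.9] against 2.62 CPM [1.96–3.44], a log2 ratio of 1.72 [0.92 to 2.45], and Tlr1 was 3.50 against 1.16 CPM, a ratio of 1.64 [0.30 to 2.76]. Myeloid transcripts moved the same way: Lyz2 was 403 CPM in ZsG-positive and 28.8 CPM in ZsG-negative T cells, and C1qa was 57.5 and 1.91 CPM. Tlr2 came to 21.2 UMIs per 1000 Lyz2 UMIs in ZsG-positive T cells, 14.2 in macrophages of that library and 91.1 in ZsG-negative T cells. In other myeloid classes of the ZsG-positive library it was 12.5 (classical monocytes), 24.7 (DC1), 35.3 (DCs that carry Ccr7) and 38.5 (DC2). The value in ZsG-positive T cells thus lay within the range of these classes. The part of this myeloid RNA in the Tlr2 difference was not tested. T cells with Lyz2 above the mean had been set apart by the class rule, which limits the Lyz2 of T cells and not that of macrophages. With thinned cells or a minimum of 100 UMIs, neither member had enough UMIs to be tested and 0 were called. In the T cell sort, where Lyz2 was 27.4 and 12.2 CPM in ZsG-positive and ZsG-negative T cells, neither of the 2 members tested was called, beside 5.41% of all genes. Tlr1 was at -0.48 [-1.66 to 0.70] and Tlr7 at -0.36 [-1.66 to 0.97], from 14 and 14 and from 12 and 11 UMIs. Tlr2 was 1.86 CPM [0.893–3.42] and 0.260 CPM [0.00657–1.45] there, with too few UMIs to test.

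The pDCs of the T cell sort allowed the endosomal receptors to be set against the ZsG gate in the class that held most Tlr7. Neither Tlr7 (0.21 [-0.05 to 0.48]) nor Tlr9 (0.65 [-0.57 to 2.46]) was called among the 2 members tested, with 4.71% of all genes called. The interval of Tlr7 left out a 2-fold difference, and that of Tlr9 did not. Among the induced genes of the pathway list, Il12a was lower in ZsG-positive pDCs (15.4 against 51.9 CPM), and Ccl5 (log2 ratio 3.32) and Tnf (114 against 41.7 CPM) were higher. Their link to Tlr7 or Tlr9, and the part of T cell RNA from this sort in them, was not tested.

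The rest of the pathway was followed through a list of 72 genes of co-receptors, endosome routing, adaptors, kinases, transcription factors, inhibitors and induced genes. In the Dmkn cluster of monocytes 3 genes were higher and 3 lower of 62 tested, among them Cd36, a scavenger receptor that aids Tlr2 (41.1 against 13.9 CPM), and the inhibitor Socs1 (211 against 448 CPM). That was 9.68% of the list, beside 12% of all genes. In DC2, 12 were higher and 3 lower of 60, or 25% beside 15.3% of all genes. The higher ones included Cd36 (43.3 against 1.46 CPM), Lgmn (272 against 48.1 CPM) and the chemokine Cxcl2 (975 against 120 CPM), and the lower ones Il6 (8.35 against 26.3 CPM) and Irf8 (340 against 690 CPM). In ZsG-negative DC2 1.46 CPM is 1 UMI, and levels of pathway genes are given without intervals. In T cells of the CD45 sort 22 of 61 were higher in the ZsG-positive library and none was lower, led by Cxcl2 (174 against 2.82 CPM), Ptgs2 (36.9 against 0.857 CPM) and Lgmn (57.5 against 1.76 CPM). That was 36.1% of the list beside 7.74% of all genes, with a median log2 ratio of 0.35 against 0.06, and it went with the Lyz2 difference above. In DC2 the median was 0.06 against 0.05 over all genes, and in the Dmkn cluster the median was 0.02 against -0.01.

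Between classes of 1 library the calls went both ways. Macrophages against classical monocytes had 4 higher and 6 lower of 69 (median log2 ratio -0.21 against 0.16 over all genes), and DC1 against DC2 had 2 higher and 4 lower of 65 (median -0.27 against 0.02). NK against T cells had 8 higher and 5 lower of 60. These shares were near those over all genes: 14.5% beside 14.3%, 9.23% beside 9.03% and 21.7% beside 21.9%. Among the calls were the kinase Syk (42.3 against 1.26 CPM), the adaptor Pik3ap1 (52.6 against 12.7 CPM) and Irf8 (1097 against 241 CPM), higher in NK cells, and Il10 (0.178 against 7.11 CPM), lower in them. In these NK cells 0.178 CPM is 2 UMIs. ZsG-positive against ZsG-negative NK cells had 12 higher and 1 lower of 56 (23.2% beside 16.9% of all genes). Cxcl2 was at 120 against 3.20 CPM and Cd14 at 25.3 against 1.87 CPM in ZsG-positive cells. In that class too, Lyz2 was 309 CPM with and 27.8 CPM without ZsG. The NK cell sums were unequal, 316655 against 11258165 UMIs, so the UMI fraction added to each sum raised the ratios of sparse genes. Tlr7, with 0 ZsG-positive and 11 ZsG-negative UMIs, came out at a log2 ratio of 0.63. The split of these NK cell calls into higher and lower is therefore not read as a direction. T cells of the T cell sort had 4 higher and 1 lower of 55 (9.09% beside 5.41%), with Il10 (31.1 against 7.53 CPM) and Cxcl2 (23.6 against 2.86 CPM) among the higher. The study reported more regulatory T cells and exhausted CD8 T cells among the ZsG-positive T cells of that sort. Their part in these calls was not tested. The pDCs of that sort had 5 higher and 1 lower of 57 (10.5% beside 4.71%). The classical monocyte gate had 10 higher and 3 lower of 66 (19.7% beside 19.4%), the 2 monocyte gates of the ZsG-negative library 2 and 3 of 60 (8.33% beside 10.9%), and the Hpgd against the Dmkn cluster 3 and 6 of 60 (15% beside 17.3%).

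The adaptor Myd88 was found in every class of at least 50 cells, from 15.8 CPM in ZsG-positive NK cells to 173 CPM in ZsG-negative non-classical monocytes of the CD45 sort. Lymphocytes thus held the adaptor while holding few UMIs of the members. In the 69 ZsG-positive NK cells, however, the level of Myd88 was near that of Tlr4, 12.6 CPM from 4 UMIs. Irf7, the interferon regulatory factor that acts after Tlr7 and Tlr9, was 338 CPM in ZsG-negative pDCs, 555 CPM in ZsG-positive classical monocytes and 47.5 CPM in ZsG-negative T cells.

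The genes whose pattern was most like that of a member were ranked over 13 class sums of the CD45 sort, by Pearson correlation of log2(CPM + 10), among 10114 genes. These correlations share libraries and classes and are a description. Only sums of at least 50 cells were used. DC1, the class with the highest Tlr3 and Tlr11, thus entered only from the ZsG-positive library (115 cells). The pDCs, with the highest Tlr7, entered only from the ZsG-negative one (219 cells). Tlr2 was most like Nlrp3, a sensor of the inflammasome (r = 0.993), then Clec4a3 (0.983) and Snx10 (0.983). Tlr13 was most like Gm21188 (0.990), Sirpb1c (0.988) and Gda (0.988). Tlr11 (0.942) and Tlr3 (0.914) both had Itgae, which codes for CD103, among their 3 nearest genes, and both had Egr3 (0.904 and 0.920), beside Plet1 for Tlr11 and St3gal5 for Tlr3. Tlr7 was most like Arid3a (0.949), Cib2 (0.948) and Sort1 (0.945). The first genes for the others were Lrp12 for Tlr1 (0.980), Card19 for Tlr4 (0.965), Tmem51 for Tlr6 (0.980), Hacd4 for Tlr8 (0.985) and Ube2q1 for Tlr9 (0.910).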

How the data were processed

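Single-cell 3′ RNA sequencing was read from 2 matrices of raw UMI counts deposited by the authors, 1 per sort, each joining the 2 ZsG gates of that sort. The authors made the counts with Cell Ranger against mm10 and joined libraries with its aggr step. The methods name version 6.1.2, as does the header of the T cell sort, and the header of the CD45 sort gives 7.0.0. The sources used here do not say whether aggr evened the depth. Cells were kept with the limits of the study: 1000 to 6000 genes and under 10% mitochondrial UMIs in the CD45 sort, and 50 to under 6000 genes and under 15% in the T cell sort, where T cells also needed 0.055% of UMIs from CD3 genes.

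A cell took the class with the largest share of markers above their mean, if at least 50% of the markers and at least 3 were raised. T, NK, B and pDC cells with Lyz2 above the mean or 2 macrophage markers were set apart. Doublets were kept. UMIs were summed per class and library and expressed as CPM. There was 1 library per condition, so no test was run, and classes needed 50 cells for a ratio. A ratio was called past 2-fold with at least 20 UMIs. Clusters came from 2000 variable genes, 20 components and Leiden resolution 2. The members, Tlr5 and Tlr12 were taken out of the variable genes before clustering. Scripts were tested on simulated data. Named were all members, and of the 72 pathway genes at most the 3 largest past 2-fold per role, with Unc93b1, Myd88, Cd14, Ly96 and Irf7. Likeness used genes with at least 200 UMIs. Sequences came from RefSeq. Alternatives varied the cell filter, gate, doublets, totals, TMM factors (edgeR), the UMI minimum, thinning and the added UMI. The members and lists were chosen with earlier results of these data known, and the class rule, the cluster comparisons and the pDC comparison of the T cell sort were chosen after seeing the data.

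Tools were scanpy 1.11.5, edgeR 4.0.16, scipy 1.17.1, numpy 2.4.6, matplotlib 3.10.9 and pandas 2.3.3, under Python 3.11.15.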

Additional observations from a re-analysis of the deposited data

Results flagged for a closer look

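Tlr2 differed in opposite directions across the ZsG gate in 2 pairs of classes of the CD45 sort. The log2 ratio of ZsG-positive over ZsG-negative cells was 0.56 in DC2 and 1.72 in T cells, against -0.64 in the classical monocyte gate. Tlr13 did likewise, at 1.71 in DC2 and -0.60 in the classical monocyte gate. With 1 library per gate these differences between classes were not tested. In the Dmkn-led cluster of monocytes, whose 2 sides still differed in Hpgd and C1qa, Tlr2 was at 0.16 and Tlr13 at -0.11.

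The mouse genes Tlr5 and Tlr12, which are not among the 10 members, also gave signal. Tlr5, the flagellin receptor, reached 5.26 CPM [1.43–13.5] in classical monocytes of the ZsG-positive T cell sort, from 4 UMIs. Tlr12, which acts with Tlr11 on parasite profilin, reached 67.5 CPM [60.3–75.3] in pDCs of the same library, and was 52.7 CPM [43.2–63.6] in ZsG-negative pDCs of the CD45 sort and 64.1 CPM [49.2–82.0] in those of the T cell sort. Tlr11 itself was at 0 UMIs in these 3 pDC groups. In DC1 of the ZsG-positive CD45 library, the class with the highest Tlr11, Tlr12 was found too, at 10.2 CPM (19 UMIs). DC2 of that library held 2.28 CPM of Tlr12 (6 UMIs), a log2 ratio of DC1 over DC2 of 2.09 [0.78 to 3.78]. In ZsG-negative cells of the CD45 sort Tlr12 was also found in NK cells, at 4.89 CPM (55 UMIs). It was 1.26 CPM (25 UMIs) in T cells there, a log2 ratio of NK over T cells of 1.94 [1.25 to 2.70].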

How the results depend on the processing

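Of 668 log2 ratios of members under the alternatives, 649 kept their side of 2-fold, 15 passed it and 3 no longer did. The other 1, Tlr7 in DC1 over DC2, went from 0.50 to -3.11 with classes taken from clusters. A change of sign short of 2-fold was counted as kept. For example, Tlr7 in NK over T cells ranged from -0.62 to 0.70 over 10 settings, and Tlr3 in DC2 across the gate from -0.65 to 0.08 over 9. Of 284 counts of calls, 242 stayed within 1.5 times. Levels and shares moved too: 114 of 1390 CPM values and 190 of 1590 shares of cells did so. The Tlr3 ratio of DC1 over DC2 ranged from 3.19 to 4.01 over 12 settings. The counts below are given without the number tested and without the share over all genes under the same setting. A moved count is therefore not read as a result about the members or the list. The cause of the changes below was not tested.

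Counts of members called moved as follows. With a mitochondrial limit of 5% they were 0 for non-classical over classical monocytes and 1 for NK over T cells. With classes from clusters they were 2 for NK cells across the gate and 6 for DC1 over DC2. For non-classical over classical monocytes it was 1 without the top 5% of doublet scores and 1 with TMM factors. With no UMI minimum it was 5 in DC2, 5 in T cells of the CD45 sort, 6 in NK cells, 4 for non-classical over classical monocytes, 6 in T cells and 2 in pDCs of the T cell sort, and 5 for the Hpgd over the Dmkn cluster. With at least 100 UMIs it was 2 in the classical monocyte gate, 1 for DC1 over DC2, and 0 in DC2, in T cells of the CD45 sort, in NK cells, in the Dmkn cluster, and for non-classical over classical monocytes, NK over T cells and the Hpgd over the Dmkn cluster. With thinned cells it was 1 for macrophages over classical monocytes, 1 for NK over T cells, and 0 in DC2, in T cells of the CD45 sort, for non-classical over classical monocytes and for the Hpgd over the Dmkn cluster. The 6 in NK cells with no UMI minimum included Tlr3, Tlr6 and Tlr13, each with 0 ZsG-positive UMIs. Their log2 ratios of 1.98, 1.98 and 2.83 came from the UMI fraction added to unequal sums.

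Counts of pathway genes for DC1 over DC2 were 17 with a stricter gate, 29 with classes from clusters, 2 with thinned cells and 22 without cells of clusters led by another class. In T cells of the T cell sort they were 8 with classes from clusters, 12 with no UMI minimum and 3 with at least 100 UMIs. With no minimum they were 25 in NK cells, 10 for non-classical over classical monocytes and 10 in the Dmkn cluster. With at least 100 UMIs they were 6 in NK cells, 3 in pDCs of the T cell sort and 3 in the Dmkn cluster. In DC2 it was 6 with thinned cells.

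No paired analysis was possible because each condition had 1 library. Comparisons left with under 50 cells on a side were not run: pDCs of the T cell sort at the 5% limit, DC2 and NK cells across the gate with the stricter gate, non-classical over classical monocytes with classes from clusters, and both classical monocyte comparisons without the cells of other clusters. Depth limits every member below about 20 UMIs per comparison, and differences between libraries include any between tumors, sorts or captures.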
